A study of Mus musculus with 2 samples.

Results

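The data on 8 nuclear genes that encode mitophagy receptors and regulators were examined in the hippocampus of aged mice: Pink1, Bnip3, Bnip3l, Fundc1, Phb2, Bcl2l13, Fkbp8 and Usp30. They were taken by symbol from the gene list of the deposited matrices, where 8 of 8 were present among 19059 genes, because tomatidine, a steroidal alkaloid of the tomato plant, is reported to induce mitophagy. C57BL/6 mice were 21 months old at the start and received either a control diet or a diet with 0.05% tomatidine for 3 months. Each group was 1 library of fixed single cells made from the frozen hippocampi of 4 pooled mice, so no value below has a replicate of its condition, no test between the diets was possible, and every interval covers counting error only.

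Mitophagy is the removal of damaged or surplus mitochondria by autophagy. In one arm, the kinase PINK1 builds up on mitochondria that have lost their membrane potential and phosphorylates ubiquitin, and proteins of the outer membrane are ubiquitinated, which the deubiquitinase USP30 opposes. In the other, receptors on the mitochondrial membranes bind the ATG8-family proteins of the forming autophagosome directly: BNIP3, NIX (encoded by Bnip3l), FUNDC1, BCL2L13 and FKBP8 on the outer membrane, and prohibitin 2 (Phb2) on the inner membrane once the outer one is broken. Much of this control acts on the proteins, by stabilisation, phosphorylation and ubiquitination, none of which an RNA count measures.

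All 8 are protein-coding genes (mouse build GRCm38, GENCODE M21). Pink1 lies on the minus strand of chromosome 4 at chr4:138313409-138326307. Usp30 lies at chr5:114065461-114124720, Bcl2l13 at chr6:120836212-120892842, Phb2 at chr6:124712336-124716950 and Fkbp8 at chr8:70527724-70535328, all on the plus strand. Bnip3 (chr7:138890836-138909519), Bnip3l (chr14:66985239-67008877) and Fundc1 (chrX:17556564-17572325) are on the minus strand.

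Bnip3 is a textbook target of the hypoxia-inducible factors (HIF), so the promoters of the genes were searched for ACGTG, the core of the sequence that HIF binds, on both strands. RefSeq promoter windows of 300 bases (250 before the start site and 50 after it, build GRCm38.p6) were at hand for 7 of the 8 genes, Bnip3l being the exception. The motif was held by 3 of the 7, against 19.6% of 32851 promoters. The windows of Pink1, Fundc1, Bcl2l13 and Usp30 did not hold these letters. The windows of Usp30 (chr5:114100083-114100382) and Fundc1 (chrX:17571958-17572257, minus strand) lie inside the loci given above, not at their starts. The starts of those loci were therefore not searched. The 3 windows with the motif are printed 5′ to 3′ on the strand of the gene, with the motif in capitals; in Bnip3 the matches on both strands overlap in a palindrome that begins 108 bases before the start site. They lie at chr7:138909457-138909756 (Bnip3, minus strand), chr6:124712039-124712338 (Phb2, plus strand) and chr8:70527493-70527792 (Fkbp8, plus strand).
Bnip3: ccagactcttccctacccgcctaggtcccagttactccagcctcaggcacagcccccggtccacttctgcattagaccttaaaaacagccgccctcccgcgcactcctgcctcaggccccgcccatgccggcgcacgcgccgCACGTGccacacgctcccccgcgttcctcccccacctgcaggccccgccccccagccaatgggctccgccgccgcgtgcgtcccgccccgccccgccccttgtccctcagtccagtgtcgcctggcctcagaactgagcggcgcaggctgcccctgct
Phb2: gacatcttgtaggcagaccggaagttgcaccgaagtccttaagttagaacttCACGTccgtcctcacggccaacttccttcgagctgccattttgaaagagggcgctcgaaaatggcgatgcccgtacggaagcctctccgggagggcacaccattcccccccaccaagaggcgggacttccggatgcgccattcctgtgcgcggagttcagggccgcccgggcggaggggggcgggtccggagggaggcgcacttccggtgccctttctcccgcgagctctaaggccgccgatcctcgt
Fkbp8: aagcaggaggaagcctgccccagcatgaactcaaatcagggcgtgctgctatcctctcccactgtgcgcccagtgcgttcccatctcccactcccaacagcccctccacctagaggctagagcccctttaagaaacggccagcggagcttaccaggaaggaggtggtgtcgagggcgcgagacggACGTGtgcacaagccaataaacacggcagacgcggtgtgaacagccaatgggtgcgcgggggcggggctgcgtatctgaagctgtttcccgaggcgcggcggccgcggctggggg

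The deposited matrices held 279525565 unique molecules (UMIs) in 15912 control cells and 259059908 in 15185 cells of tomatidine-fed mice, and 15115 and 14502 cells were kept. Of the cell barcodes, 292 occurred in both libraries, which is 1.84% of the control and 1.92% of the tomatidine barcodes. The cells formed 36 clusters, of which 30 were named from marker genes and 6, with 10.0% of control and 9.80% of tomatidine cells, stayed unnamed. Of the 13 named classes, 10 had at least 100 cells in each library and were compared. Ttr, which choroid plexus cells make in great amounts, was lower in the tomatidine library in all 10, and the choroid plexus-like class held 342 control and 33 tomatidine cells. Border macrophage-like cells also carried 8 of 8 T cell markers. The subcortical neuron-like class was made up differently in the 2 libraries: cluster 21 (Gbx2) gave 49.7% of its control cells and cluster 11 (Pou4f2, Barhl1) 70.9% of its tomatidine cells.

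Levels are given in CPM, the UMIs of a gene in a class per 1000000 UMIs of that class in that library. On this scale Ttr was 2212 CPM in control and 65.3 CPM in tomatidine endothelial-like cells. Probe-based counts depend on the number and strength of the probes for a gene, so levels were compared between classes and libraries but not between genes. Each of the 8 genes was detected in all 10 classes of both libraries.

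**Figure D1:**
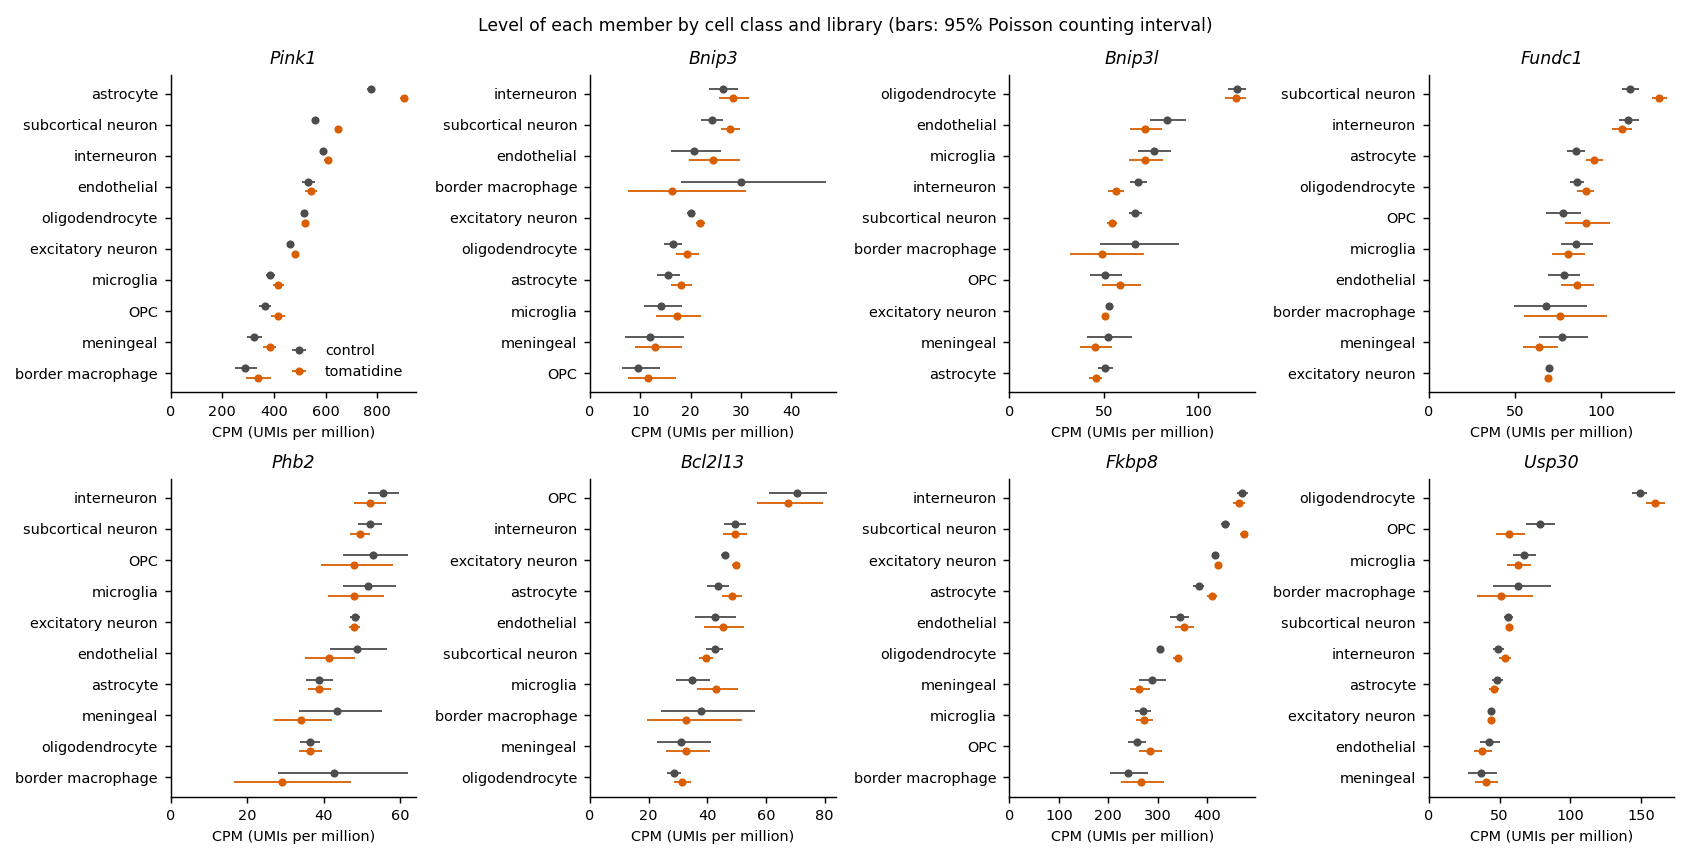
CPM of each gene (x axis, linear) in 10 cell classes (y axis, ordered by mean level) in the control (grey) and tomatidine (orange) library; bars are 95% Poisson counting intervals. Astrocyte-like cells stand highest for Pink1 and oligodendrocyte-like cells for Usp30 and Bnip3l in both libraries, while no neighbouring classes are separated for Phb2 in both libraries.

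Among the 10 compared classes, Pink1 had its highest level in astrocyte-like cells, at 776 CPM in the control library and 904 CPM in the tomatidine library. Subcortical neuron-like cells came next by their mean, at 559 and 647 CPM, and border macrophage-like cells were lowest at 289 and 338 CPM. The level in astrocyte-like cells exceeded that of the next class by 0.48 (95% interval 0.44 to 0.51) on the log2 scale in the control and by 0.48 (0.45 to 0.51) in the tomatidine library. The order of the 10 classes was nearly the same in both libraries (Spearman's rho 0.99, a description over classes that share their library). Of the 9 pairs of neighbouring classes in this order, 4 differed beyond counting error in the same direction in both libraries. Subcortical neuron-like cells stood below interneuron-like cells in the control and above them in the tomatidine library, and endothelial-like cells were not separated from oligodendrocyte-like cells. Among the 4 lowest classes (microglia-, OPC-, meningeal- and border macrophage-like), no neighbours were separated in both libraries. Ependymal-like cells, too few to enter the comparison (36 and 15 cells), were as high as astrocyte-like cells in the control. They held 782 CPM of Pink1 from 409 UMIs in the control and 718 CPM from 200 UMIs in the tomatidine library.

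Astrocyte-like cells were not uniform. Cluster 2 (led by Fam107a and Acsbg1) reached 1008 CPM of Pink1 in the control and 1150 CPM in the tomatidine library, and cluster 12 (Agt, Sfrp5) 944 and 1115 CPM. Cluster 10 (Slc7a10, Cyp4f15) stood at 427 and 476 CPM, and cluster 27 (Myoc, Thbs4) at 551 and 639 CPM. Cluster 2 exceeded cluster 10 by 1.24 (1.15 to 1.33) in the control and 1.27 in the tomatidine library on the log2 scale, against a difference of 0.22 between the diets over the whole class. Cluster 10 also carried less oligodendrocyte RNA, with 12 markers summing to 2763 and 2728 CPM against 5787 and 5522 CPM in cluster 2. It was also deeper, at a median of 5614 against 2902.5 UMIs per cell over both libraries. Cluster 27, however, had the largest marker sum of the class. Among astrocyte-like cells without UMIs of 7 mature oligodendrocyte markers, the 12 markers summed to 2897 and 2545 CPM. Pink1 in those cells was 762 CPM in the control and 895 CPM in the tomatidine library. Oligodendrocyte-like cells themselves held 515 and 519 CPM of Pink1. Pink1 was also unequal in other classes. It was 599 and 647 CPM in microglia-like cluster 19 (Ctss), against 317 and 324 CPM in cluster 7 (Tmem119). Excitatory neuron-like cluster 24 (Pla2g2f) held 649 and 720 CPM, against 337 and 341 CPM in cluster 4. These higher clusters were shallower, at medians of 1348 against 3764 and 4298 against 17760.5 UMIs. The spread was smaller in oligodendrocyte-, subcortical neuron- and interneuron-like cells. The part of oligodendrocyte RNA or depth in the Pink1 levels was not tested.

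Among the receptors, Bnip3l was highest in oligodendrocyte-like cells, with 120 CPM in each library. Endothelial-like cells came next at 83.5 CPM in the control and 72.0 CPM in the tomatidine library. The gap between these classes was 0.53 (0.35 to 0.71) on the log2 scale in the control and 0.73 (0.55 to 0.92) in the tomatidine library. No other pair of neighbours was separated in both libraries, and the remaining 8 classes lay between 45.3 and 76.4 CPM.

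Bnip3, the close relative of Bnip3l, had its highest mean level over the libraries in interneuron-like cells, at 26.4 CPM in the control and 28.5 CPM in the tomatidine library, followed by subcortical neuron-like cells at 24.3 and 27.9 CPM. OPC-like cells were lowest, with 28 UMIs (9.57 CPM) in the control and 25 UMIs (11.5 CPM) in the tomatidine library. Border macrophage-like cells held only 19 UMIs in the control and 9 UMIs in the tomatidine library. Only excitatory neuron-like cells, at 20.1 and 21.9 CPM, were separated from their lower neighbour, the oligodendrocyte-like class, in both libraries.

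By class, Fundc1 was highest among the 10 compared in neurons outside the excitatory class. It was 117 and 134 CPM in subcortical neuron-like and 116 and 112 CPM in interneuron-like cells. Excitatory neuron-like cells had the lowest mean of the 10 classes, at 69.8 and 69.2 CPM. Ependymal-like cells, which line the ventricles and were too few to enter the comparison (36 and 15 cells), held 185 CPM of Fundc1 from 97 UMIs in the control and 190 CPM from 53 UMIs in the tomatidine library. Interneuron-like cells exceeded the next class, astrocyte-like cells, by 0.44 in the control and 0.23 in the tomatidine library on the log2 scale. Within the astrocyte-like class, however, cluster 12 (Agt, Sfrp5) held 121 and 135 CPM of Fundc1, as high as the subcortical neuron-like class. Cluster 10 held 72.7 and 80.5 CPM.

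Fkbp8, an immunophilin that also binds BCL2, followed the neurons. Its level was 471 and 464 CPM in interneuron-like, 437 and 475 CPM in subcortical neuron-like and 415 and 423 CPM in excitatory neuron-like cells. Astrocyte-like cells came next at 383 and 410 CPM, and border macrophage-like cells held 240 and 267 CPM. The clusters of these classes overlapped. Astrocyte-like cluster 2 reached 475 and 512 CPM of Fkbp8, while excitatory neuron-like cluster 4 (Tdo2, Dsp) held 336 and 345 CPM. Bcl2l13 was highest in OPC-like cells, the precursors of oligodendrocytes, at 70.4 and 67.4 CPM, and lowest in oligodendrocyte-like cells, at 28.5 and 31.3 CPM. OPC-like cells exceeded the next class by 0.51 (0.28 to 0.74) in the control and by 0.45 (0.18 to 0.72) in the tomatidine library on the log2 scale.

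Phb2 had the narrowest range over classes of the 8 genes in each library. Its level ran from 36.4 to 55.6 CPM in the control and from 29.1 to 52.1 CPM in the tomatidine library, a highest over lowest ratio of 1.52 and 1.79, and 0 of 9 neighbouring pairs were separated in both.

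Usp30, the brake on the PINK1 arm, showed the steepest class pattern. Oligodendrocyte-like cells held 149 CPM (2951 UMIs) in the control and 160 CPM (2413 UMIs) in the tomatidine library, which was 3.03 and 3.14 times the median of the other 9 classes. OPC-like cells came next by their mean, at 78.3 and 56.8 CPM, and the lowest levels were 36.9 CPM in control meningeal-like and 37.8 CPM in tomatidine endothelial-like cells. The step from the oligodendrocyte-like class to the next was 0.93 (0.73 to 1.13) on the log2 scale in the control and 1.49 (1.23 to 1.77) in the tomatidine library.

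Usp30 and Bnip3l were also unequal within glial classes, and among microglia-like clusters both were highest where oligodendrocyte RNA was highest. In microglia-like cluster 29 (Ccl12, Gpr84, Lag3; 114 control and 96 tomatidine cells) Usp30 was 160 and 114 CPM, against 37.2 and 45.2 CPM in cluster 7 (Tmem119). The difference was 2.10 (1.73 to 2.49) on the log2 scale in the control and 1.33 (0.91 to 1.76) in the tomatidine library. Bnip3l was 119 and 101 CPM in cluster 29 against 62.3 and 61.4 CPM in cluster 7. The same cluster 29 carried the 12 oligodendrocyte markers, none of them at 0, at a summed 56160 CPM in the control and 45720 CPM in the tomatidine library, against 65237 and 60455 CPM in the oligodendrocyte-like class itself. Cluster 7 carried them at 2918 and 2454 CPM. The 11 microglia markers of cluster 29 summed to 10897 and 14282 CPM, against 41651 and 39407 CPM in cluster 7. The part of oligodendrocyte RNA in the Usp30 and Bnip3l levels of cluster 29 was not tested.

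Within the oligodendrocyte-like class, Usp30 was likewise lower where the marker sum was lower. Cluster 0 (Klk6, Gjb1) had 157 and 177 CPM of Usp30 with marker sums of 72822 and 70813 CPM. Cluster 32 (Enpp6), with 56 control and 50 tomatidine cells, had 119 and 70.4 CPM of Usp30 with marker sums of 38213 and 15084 CPM. Astrocyte-like clusters did not keep this order throughout. By mean level Usp30 was highest in cluster 27 (78.1 and 61.4 CPM), which had the largest marker sum. It was lowest in cluster 2 (37.2 and 39.4 CPM), although cluster 10 had the smaller marker sum. Bnip3l in cluster 27 exceeded cluster 10 by 0.65 (0.29 to 1.01) in the control but by 0.02 (-0.36 to 0.40) in the tomatidine library.

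**Figure D2:**
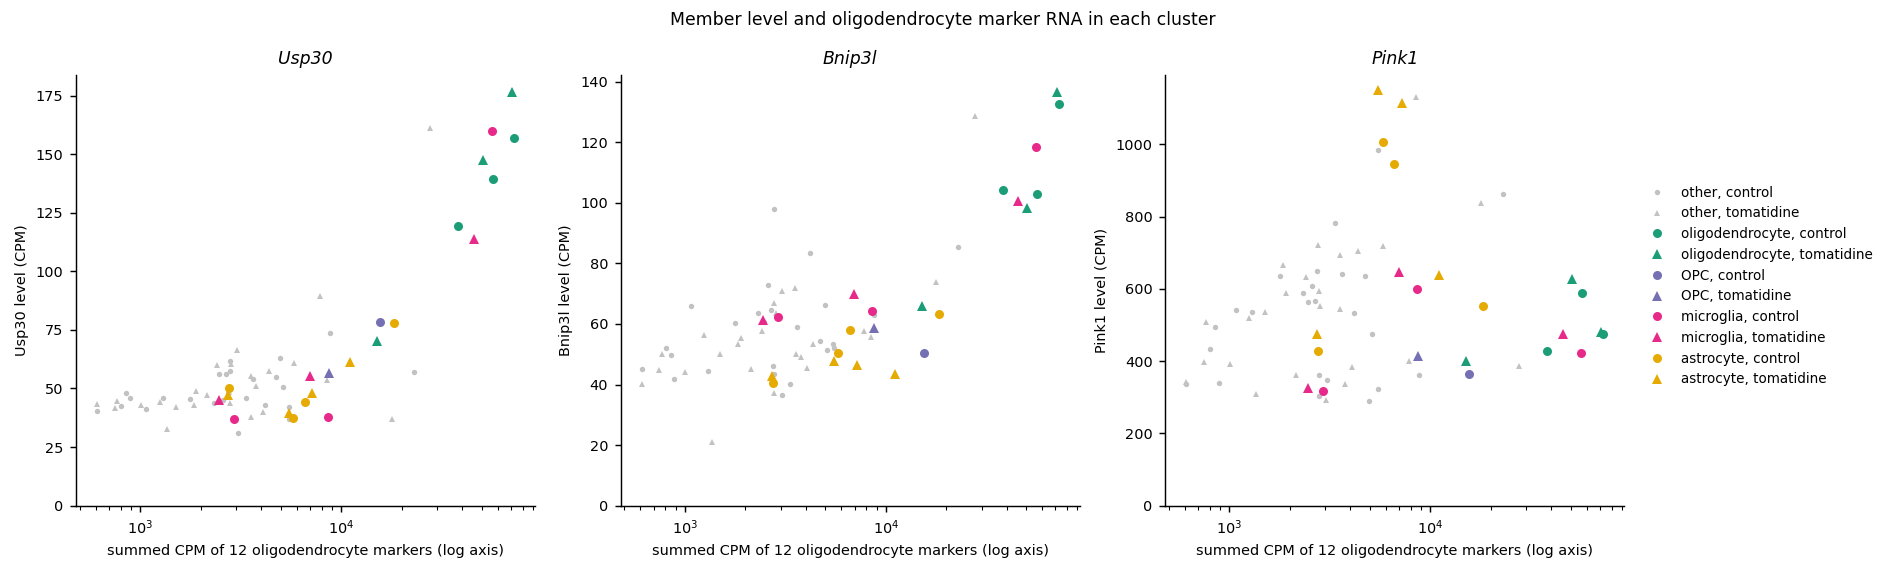
Level of Usp30, Bnip3l and Pink1 (y axis, CPM) against the summed CPM of 12 oligodendrocyte markers (x axis, log scale) in each of the 36 clusters, with circles for control and triangles for tomatidine and colours for 4 glial classes. Clusters with Usp30 above 100 CPM all lie at the right of the plot, microglia-like cluster 29 (45720 and 56160 CPM of markers) among them. The astrocyte-like clusters with the highest Pink1 levels lie at marker sums between 5522 and 7193 CPM and cluster 10, with the lowest Pink1 of that class, at 2763 and 2728 CPM.

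Over the 13 named classes, Bnip3l and Usp30 had alike patterns (Pearson's r of log2(CPM + 1) 0.71 in the control and 0.75 in the tomatidine library), as did Pink1 and Fkbp8 (0.68 and 0.80) and Pink1 and Fundc1 (0.71 and 0.69). These are descriptions over 13 points that share their libraries. Among the 9614 genes with a mean of at least 20 CPM over classes in both libraries, the pattern of Usp30 was most like Pik3c2b (0.95 and 0.66), Sec11c (0.94 and 0.83) and Pde4b (0.94 and 0.82). For Pink1 the 3 genes were Aktip (0.89 and 0.79), Chchd2 (0.87 and 0.91), which encodes a protein of the mitochondrial intermembrane space, and Gatd3a (0.85 and 0.77). For Bnip3l they were Pias4 (0.88 and 0.61), Plekha1 (0.87 and 0.90) and Sh3kbp1 (0.87 and 0.85), for Fkbp8 Plch2 (0.94 and 0.75), Rangap1 (0.94 and 0.88) and Pfdn6 (0.93 and 0.78), and for Fundc1 Hgs (0.91 and 0.76), Fhl1 (0.91 and 0.77) and Paip2 (0.90 and 0.83). The likeness seen in the control library did not carry over for the 3 remaining genes: Csnk2a2, Prelid1 and Grk6 beside Bnip3 gave 0.84, 0.84 and 0.83 in the control but 0.24, 0.54 and 0.40 in the tomatidine library. Tfb2m, Sec61g and Psmf1 beside Phb2 gave 0.96, 0.94 and 0.93 against 0.37, 0.48 and 0.17, and Mospd3, Bnip1 and Atad3a beside Bcl2l13 gave 0.90, 0.89 and 0.89 against 0.54, -0.08 and 0.17. All these partners were picked by their control values, so a fall in the other library is no measure of a difference between the libraries. The 13 classes also include some too small to be compared. Bnip3 had 3 and 3 UMIs in mural-like, 7 and 3 in ependymal-like and 32 and 8 in choroid plexus-like cells.

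The comparison of the diets asked whether the RNA of these genes differed between the tomatidine and control libraries in any class. A gene was counted as past the fold rule where the tomatidine level was at least 25% above, or the control level at least 25% above, the other and the 95% counting interval of their ratio excluded 1, among genes with at least 100 UMIs over both libraries. Of 80 pairs of a gene and a class, 72 had enough UMIs. The 8 that did not were Bnip3 in OPC-, meningeal- and border macrophage-like cells and Bnip3l, Fundc1, Phb2, Bcl2l13 and Usp30 in border macrophage-like cells. Of the 72 ratios, 0 were past the rule in the higher direction, where 8.19% of all gene and class ratios were, and 1 (Usp30 in OPC-like cells) was past it in the lower direction, where 4.6% of all were.

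**Figure D3:**
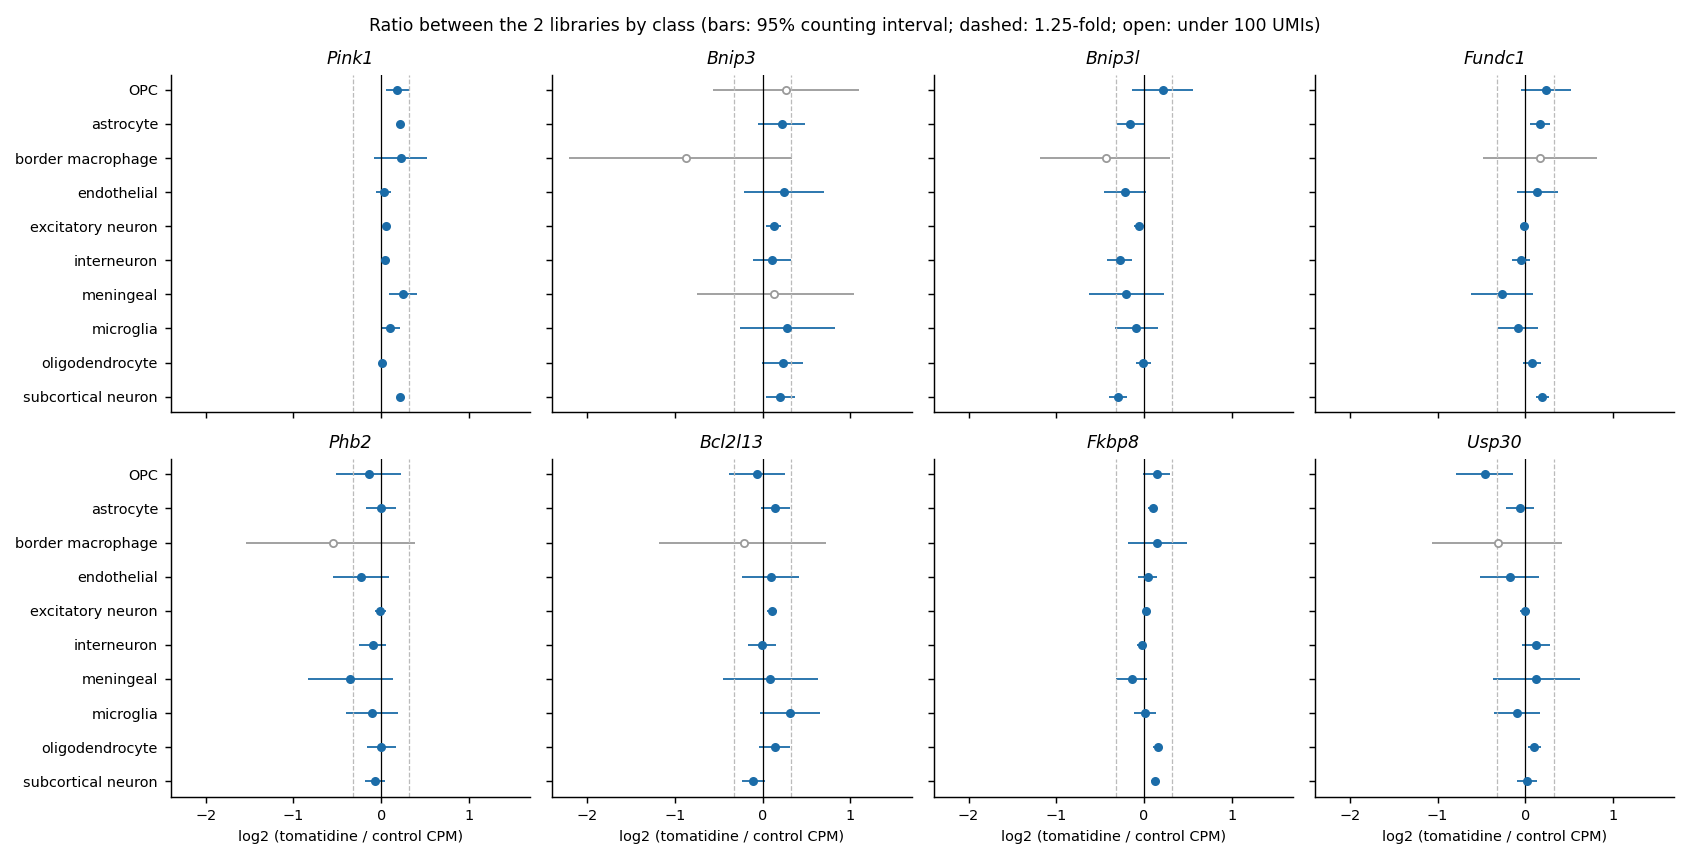
Log2 ratio of tomatidine over control CPM (x axis) for each gene in 10 cell classes (y axis); bars are 95% counting intervals, dashed lines mark the fold rule, and open grey points have under 100 UMIs. All 10 Pink1 points lie right of 0 but inside the dashed lines, and only the OPC-like Usp30 point is past the left line with an interval that excludes 0 and at least 100 UMIs.

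Pink1 was higher in the tomatidine library in 10 of 10 classes, by a median log2 ratio of 0.15. Of 9239 genes with at least 20 UMIs in each class, 2.45% were higher in all 10. In astrocyte-like cells the log2 ratio was 0.22 (0.18 to 0.26), a 1.16-fold difference from 9761 control and 14367 tomatidine UMIs, and it was 0.16 to 0.24 in the 4 astrocyte-like clusters, each interval above 0. Values of similar size stood in meningeal-like (0.24, 0.08 to 0.40), border macrophage-like (0.23, -0.08 to 0.53), subcortical neuron-like (0.21, 0.18 to 0.25) and OPC-like cells (0.18, 0.05 to 0.31), and the microglia-like value was 0.11 (0.00 to 0.21). In oligodendrocyte-like (0.01, -0.03 to 0.06), endothelial-like (0.03, -0.06 to 0.12), interneuron-like (0.04, -0.01 to 0.08) and excitatory neuron-like cells (0.05, 0.03 to 0.07) the levels of the libraries were nearly equal.

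Scaling each class with trimmed-mean factors (TMM), which lowered the ratios by up to 0.09 and raised those of the meningeal-like class by 0.04, left 7 of 10 classes higher. The 3 that turned were oligodendrocyte-, interneuron- and excitatory neuron-like cells. TMM moves all genes of a class by the same amount, and the share of all genes higher under it was not computed. In the cells without UMIs of 7 mature oligodendrocyte markers 4 of the 7 classes that could be formed were higher. The subcortical neuron-like value was 0.05 when both libraries were given the same mix of clusters, with 0.11 (0.06 to 0.16) in cluster 11 and -0.04 (-0.09 to 0.02) in cluster 21. The astrocyte-like value stayed between 0.14 and 0.23 over the 12 alternatives that gave it a value.

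Excitatory neuron-like cells hid differences among their subclasses. Pink1 was 339 CPM in the control and 392 CPM in the tomatidine library in CA3 pyramidal-like cells, a log2 ratio of 0.21 (0.13 to 0.29). It was 433 and 399 CPM in CA1 pyramidal-like cells, a log2 ratio of -0.12 (-0.17 to -0.07), and 408 and 416 CPM in dentate granule-like cells, a log2 ratio of 0.03 whose interval included 0. CA1 pyramidal-like cells also had the lower levels of Fkbp8 (479 and 442 CPM, -0.12) and Bnip3l (52.1 and 44.9 CPM, -0.21) in the tomatidine library, and 7 of the 8 genes were lower there. The intervals of 3 of the 8 were below 0, where 17.4% of all genes had such an interval and the median of all 10832 genes was 0.06. Median depth per cell in this subclass was 25261.5 UMIs in the control and 17503 UMIs in the tomatidine library, and its part in these values was not tested.

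Bnip3 was higher in the tomatidine library in 9 of 10 classes (10.1% of genes were higher in at least 9), at a median log2 ratio of 0.21. The exception was the border macrophage-like class, with 19 UMIs against 9. The intervals were above 0 in excitatory neuron-like cells (20.1 and 21.9 CPM, 0.13, 0.04 to 0.22) and subcortical neuron-like cells (24.3 and 27.9 CPM, 0.20, 0.04 to 0.36). The excitatory value was not seen within its named subclasses, which gave 0.02 in dentate granule-, -0.03 in CA1 pyramidal- and -0.13 in CA3 pyramidal-like cells, and it was 0.06 (-0.03 to 0.15) with the same mix of clusters in both libraries. The subcortical value was 0.13 (-0.03 to 0.30) with the same mix of clusters, and -0.34 from 67 UMIs when cells were limited to at most 6000 genes and 10% mitochondrial UMIs.

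Bnip3l went the other way: it was higher in 1 of 10 classes, the OPC-like one, and 4.34% of genes were higher in at most 1. The largest differences among classes with 100 UMIs were 66.6 and 54.2 CPM in subcortical neuron-like cells (-0.30, -0.40 to -0.19) and 68.3 and 56.3 CPM in interneuron-like cells (-0.28, -0.42 to -0.13), while excitatory neuron-like cells gave 52.8 and 50.7 CPM (-0.06). Endothelial-like cells gave 83.5 and 72.0 CPM (-0.21, -0.46 to 0.03) and astrocyte-like cells 50.8 and 45.6 CPM (-0.16, with the whole interval below 0 and its lower end at -0.31). Oligodendrocyte-like cells, where the gene is highest, were equal within counting error (-0.01, -0.10 to 0.08). The subcortical value was -0.16 with the same mix of clusters and the interneuron-like value -0.27.

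Of the other receptors, Fundc1 was higher in 6 of 10 classes (52.9% of genes were higher in at least 6), with intervals above 0 in astrocyte-like (85.4 and 95.8 CPM, 0.17, 0.05 to 0.28) and subcortical neuron-like cells (117 and 134 CPM, 0.19, 0.12 to 0.27). The astrocyte-like value was -0.05 (-0.31 to 0.22) in cells without the mature oligodendrocyte markers, and the subcortical one was 0.02 with the same mix of clusters. Fkbp8 was higher in 8 of 10 classes (22.6% of genes were higher in at least 8), most in oligodendrocyte-like cells (306 and 340 CPM, 0.16, 0.10 to 0.21), and this value was 0.09 with TMM factors. Bcl2l13 was higher in 6 classes, with 46.0 and 49.7 CPM in excitatory neuron-like cells (0.11, 0.05 to 0.17) and 34.6 and 42.9 CPM in microglia-like cells (0.31, -0.03 to 0.65). Phb2 was higher in 1 of 10 classes, the oligodendrocyte-like one (36.4 and 36.5 CPM), and no interval excluded 0.

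Usp30 in OPC-like cells, the 1 value past the rule, was 78.3 CPM from 229 UMIs in the control and 56.8 CPM from 123 UMIs in the tomatidine library, a log2 ratio of -0.46 (-0.79 to -0.14), where 5.64% of the 9330 genes of that class were past the rule in the lower direction. The oligodendrocyte markers of these cells were lower too, with 12 of 12 intervals below 0. Their summed level was 15526 CPM in the control and 8736 CPM in the tomatidine library, while the precursor marker Pdgfra was 2081 and 2337 CPM. Among OPC-like cells without a UMI of Mog, Mag, Opalin, Ermn, Aspa, Mal or Cldn11 (80 control and 119 tomatidine cells), the 12 markers summed to 1941 and 1949 CPM, and Usp30 was 30.8 CPM from 12 UMIs in the control and 52.9 CPM from 31 UMIs in the tomatidine library. The log2 ratio there was 0.78 (-0.22 to 1.87), the opposite direction. In oligodendrocyte-like cells Usp30 was 149 and 160 CPM (0.10, 0.03 to 0.18). It was higher in 4 of 10 classes in all, where 80.6% of genes were higher in at least 4.

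The wider pathway was described with gene lists, over the values with at least 100 UMIs in the 10 classes. The share of all genes past the rule was largest in the subcortical neuron-like class (15.7% higher, 9.84% lower), whose clusters were mixed unequally, and in the small border macrophage-like class (12.9% higher, 9.88% lower). Of 157 values for 17 genes of the PINK1 arm, 7 were past the rule higher and 1 lower, against the 8.19% and 4.6% of all values. Among the higher ones were the mitofusins Mfn1 in microglia-like (0.33) and border macrophage-like cells (0.74) and Mfn2 in OPC-like (0.33) and border macrophage-like cells (0.56), the ubiquitin ligase gene March5 in microglia-like cells (0.36), and the protease gene Oma1 in excitatory neuron-like cells (0.34). The lower one was Tomm7, whose protein holds PINK1 at the outer membrane, in meningeal-like cells (-0.43).

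The autophagy adaptors gave 2 values higher and 2 lower of 59 (3.39% each), against 8.19% and 4.6% of all values. The 2 higher were Optn in excitatory neuron-like (10.3 and 14.8 CPM, 0.52, 0.41 to 0.64) and microglia-like cells (0.51). The 2 lower were Sqstm1, which encodes p62, in OPC-like (147 and 105 CPM, -0.49, -0.73 to -0.25) and meningeal-like cells (165 and 126 CPM, -0.38, -0.63 to -0.14). Of 50 values for the 5 ATG8-family genes, 1 was higher (Map1lc3a in border macrophage-like cells, 0.65) and 1 lower (Gabarap in OPC-like cells, -0.36). Each was 2% of the values, also below the shares of all values.

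Genes that control the receptors gave 5 values higher and 1 lower of 85 (5.88% and 1.18%), against 8.19% and 4.6% of all values. Epas1, which encodes HIF2A, was higher in excitatory neuron-like (0.46, 0.34 to 0.57), interneuron-like (0.36) and oligodendrocyte-like cells (0.33), and Hif1a in astrocyte-like cells (35.5 and 47.1 CPM, 0.41, 0.24 to 0.58). Src, whose kinase phosphorylates FUNDC1, was higher in border macrophage-like (0.70) and lower in subcortical neuron-like cells (-0.49). Genes of mitochondrial content were past the rule in 2 of 111 values, higher for Hspa9 in microglia-like cells (0.39) and lower for Atp5a1 in border macrophage-like cells (-0.67). Each was 0.90% of the values. Mitochondrial biogenesis gave 4 higher and 1 lower of 63 (6.35% and 1.59%), again below the shares of all values. Ppargc1a in OPC-like (0.63), Ppargc1b in oligodendrocyte-like (0.53), Esrra in meningeal-like (0.44) and Nrf1 in subcortical neuron-like cells (0.49) were higher. Esrra in subcortical neuron-like cells was lower (-0.34). The share of UMIs from mitochondrial genes did not move in 1 direction. In astrocyte-like cells it was 1.85% in the control and 1.63% in the tomatidine library, and in oligodendrocyte-like cells 0.92% and 0.84%. It was also lower with tomatidine in border macrophage-, endothelial-, interneuron-, microglia- and subcortical neuron-like cells. It was higher in OPC-like (0.78% and 0.87%), excitatory neuron-like (0.32% and 0.35%) and meningeal-like cells. Over all kept cells the share was 0.587% and 0.584%.

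HIF targets were lower in 72 and higher in 42 of the 114 values for 14 genes. Of these values, 18 (15.8%) were past the rule lower, where 4.6% of all values were, and 2 (1.75%) higher. The 18 came from Ddit4, an inhibitor of mTORC1 (6 classes), Ndrg1 (6 classes), the vasodilator peptide gene Adm (3 classes), and Vegfa, Ldha and Kdm3a (1 class each). Ddit4 was 318 and 224 CPM in oligodendrocyte-like (-0.51, -0.57 to -0.45), 311 and 221 CPM in endothelial-like (-0.49, -0.62 to -0.36) and 142 and 82.2 CPM in microglia-like cells (-0.79). Ndrg1, which is also a gene of myelinating glia, was 245 and 126 CPM in OPC-like cells (-0.96), where oligodendrocyte markers were lower as well, and 106 and 69.2 CPM in astrocyte-like cells (-0.62). The 2 values past the rule higher were Pdk1 (0.37) and Egln3 (0.32) in subcortical neuron-like cells. The median of the list was below that of all genes in 10 of 10 classes, from -0.21 in border macrophage-like to -0.04 in microglia-like cells. Bnip3, itself a HIF target, had at least 100 UMIs in 5 of the 6 classes in which Ddit4 was lower past the rule, and its log2 ratio was above 0 in all 5, between 0.20 and 0.28. Of these intervals the subcortical one excluded 0, but not with the same mix of clusters in both libraries.

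**Figure D4:**
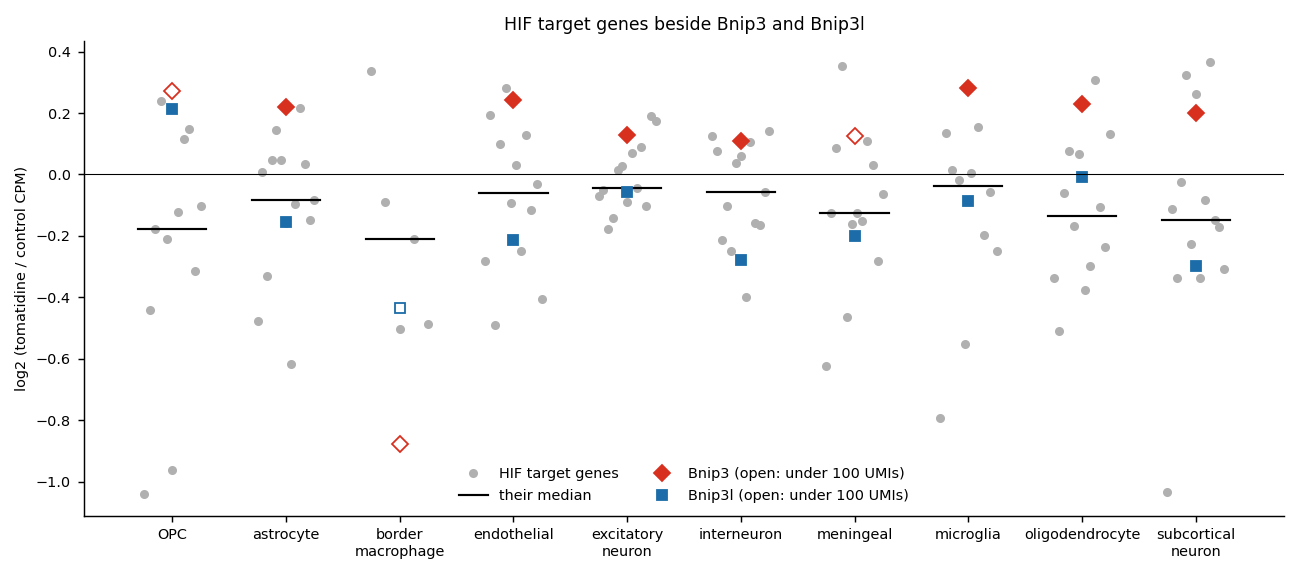
Log2 ratio of tomatidine over control CPM (y axis) for the HIF target genes with at least 100 UMIs (grey points, black line for their median), Bnip3 (red diamonds) and Bnip3l (blue squares) in 10 cell classes (x axis); open symbols have under 100 UMIs. The list median lies below 0 in every class, the Bnip3 diamonds lie above it in 9 of 10, and the Bnip3l squares lie below 0 in 9 of 10.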

How the data were processed

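The authors made fixed single-cell libraries with mouse transcriptome probes from frozen hippocampi and deposited 1 filtered matrix of UMI counts per library. Their processing notes name Cell Ranger 8.0.0 and mm10, and the matrix header names 7.1.0. Cells with at least 500 UMIs, 250 genes, a log10 genes per UMI ratio of 0.8 and at most 20% mitochondrial UMIs were kept, and the 2% with the highest Scrublet scores (scanpy 1.11.5) were removed, since its own threshold called 0 and 1 cells. Libraries were integrated by reciprocal PCA in Seurat 5.3.0 (2000 variable genes, 30 components, resolution 0.8). A cluster was named where at least 3 markers of a class were raised at least 2-fold, a naming rule that was written after the clusters had been seen. UMIs were summed per class and library. Levels have exact Poisson intervals, and log2 ratios have exact conditional binomial intervals, at 95%; both cover counting error only. TMM factors came from edgeR 4.0.16 (R 4.3.3). The scripts were tested on simulated data. The genes, gene lists and tests were chosen with earlier results of these data known. Genes named beyond the 8 were all list values past the fold rule and the 3 genes most alike in pattern in the control library among 9614 compared, besides those named for a stated reason. Some single-gene values were withheld and are not reported here, though the genes remain in the counts and sums of their lists.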

Additional observations from a re-analysis of the deposited data

Results flagged for a closer look

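Pairs were sought among the 10 compared classes and, separately, among the named subclasses of excitatory neurons. In 3 cases such a pair gave log2 ratios of tomatidine over control with intervals on opposite sides of 0 for the same gene. Pairs of a subclass with another class are not listed, although the CA1 values below were also opposite to those of several classes. With 1 library per diet, none of these differences between classes was tested. Pink1 was 0.21 in CA3 pyramidal-like and -0.12 in CA1 pyramidal-like cells. Fkbp8 was 0.037 in dentate granule-like and -0.12 in CA1 pyramidal-like cells. Usp30 was 0.10 in oligodendrocyte-like and -0.46 in OPC-like cells, and the oligodendrocyte markers of the OPC-like cells were lower in the same library (15526 against 8736 CPM summed over 12 markers).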

How the results depend on the processing

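The ratios of the 8 genes were recomputed under 12 settings, some of which formed fewer than 10 classes, and 3 further alternatives changed the counting rule only. The same mix of clusters and the cells without mature oligodendrocyte markers were chosen after seeing the data. The 1 value past the fold rule turned direction: Usp30 in OPC-like cells, -0.46 in the main analysis, was 0.78 in cells without those markers. That value came from 12 and 31 UMIs, and its interval (-0.22 to 1.87) included 0. Smaller values whose intervals had excluded 0 turned as well. In cells without those markers, Pink1 became -0.11 in OPC-like, -0.06 in microglia-like and -0.01 in excitatory neuron-like cells. There, Fundc1 became -0.05 in astrocyte-like and Fkbp8 about 0 in excitatory neuron-like cells. The intervals of these values in cells without those markers all included 0. With TMM factors, Pink1 became about 0 and Fkbp8 -0.03 in excitatory neuron-like cells. With the marker gate, Pink1 became -0.26 in meningeal-like, Fkbp8 -0.02 in subcortical neuron-like and Usp30 -0.01 in oligodendrocyte-like cells. In subcortical neuron-like cells, the stricter limits below gave -0.34 for Bnip3 and -0.16 for Fkbp8, and resolution 0.3 gave about 0 for Fundc1. The number of ratios past the fold rule in the lower direction (1) became 2 with TMM factors, 4 with the mean of cell CPM, 2 with a marker gate in place of clusters, 2 in cells without oligodendrocyte markers, 4 with a fold of 1.1 and 0 with a fold of 1.5. In the higher direction (0) it became 4 with the mean of cell CPM, 3 with the marker gate and 8 with a fold of 1.1.

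The number of classes with a higher level moved for several genes. With the stricter limits of at most 6000 genes and 10% mitochondrial UMIs per cell it was 5 for Bnip3, 3 for Bnip3l, 2 for Phb2 and 5 for Fkbp8. With the marker gate it was 2 for Bnip3l, 2 for Phb2, 5 for Fkbp8 and 2 for Usp30. It was 3 for Bnip3l with the mean of cell CPM and 2 with no doublet removal. For Phb2 it was 0 with TMM factors, without the most abundant genes in the total, with no doublet removal and with the same mix of clusters. In cells without oligodendrocyte markers, where 7 classes could be formed, it was 4 for Pink1, 4 for Bnip3, 2 for Bnip3l, 1 for Fundc1, 3 for Phb2, 3 for Bcl2l13 and 3 for Fkbp8. The cause of these moves was not tested, apart from the smaller number of classes in the last setting.

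The log2 level of the highest class over the median of the others moved under the stricter limits to 0.31 for Bnip3, 1.28 for Bnip3l, 0.090 for Fundc1, 0.35 for Fkbp8 and 1.79 for Usp30. With the marker gate it was 0.47 for Bnip3, 0.42 for Fundc1 and 1.30 for Usp30, and at resolution 0.3 it was 0.34 for Fundc1. Resolution 0.3 and no integration each found 9 of the 10 classes. No paired analysis was possible because each diet was 1 library of pooled mice, which also leaves no replicate to omit. Depth limited Bnip3, with under 100 UMIs in 3 classes, and the border macrophage-like class, with 152 and 130 cells, most.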
